A study of Mus musculus with 12 samples.

Results

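The SLC25 family of mitochondrial carriers was examined in RNA-seq of cardiac samples from mice labelled EGFR KO or WT. Its members were taken as every row of the deposited gene tables whose single symbol starts with Slc25a, which gave 47 of 24340 rows. Of these, 38 had a level of at least 1 FPKM (a level scaled to transcript length and to sequencing depth) in at least 1 group and were tested by the authors in both comparisons. The other 9 stayed below 1 FPKM in every group, and no fold is given for them. The study holds 12 samples in 4 groups of 3, namely EGFR KO at 9 weeks of age (9wkKO), WT at 9 weeks (9wkWT), EGFR KO at 7 weeks (7wkKO) and WT at 7 weeks (7wkWT). The authors' deposited tables compared 9wkKO with 7wkKO and 7wkKO with 7wkWT, so both share the 7wkKO samples, and 9wkWT was not analysed here. Without 9wkWT, a change with age that WT mice share cannot be told apart from one particular to EGFR KO. A high or low value in 7wkKO alone would give folds of opposite sign in the comparisons. The sources used here do not give the strain, the sex, the promoter driving any Cre or the deleted part of Egfr, and do not say whether separate animals were used for the samples within a group. Each table gives 1 value per group and none per sample, so the spread between replicates and the depth are unknown.

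Mitochondrial carriers are small proteins of the inner membrane that exchange metabolites, nucleotides, phosphate and cofactors between the cytosol and the matrix. They are encoded in the nucleus, made in the cytosol and inserted into the inner membrane through the TIM22 translocase. In heart muscle, the exchange of matrix ATP for cytosolic ADP by the ADP/ATP carriers, together with phosphate import, feeds contraction, while other carriers bring in fatty acid as acylcarnitine and move reducing equivalents through the malate-aspartate shuttle.

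A gene was called changed where the authors' deposited Cuffdiff q was under 0.05. At 7 weeks 0 of the 38 measured carriers were called in the authors' deposited table higher or lower, against 2.37% of the 11987 genes tested (1.67% higher and 0.701% lower). At an unadjusted deposited p under 0.05 there were 2 (5.26%), against 11.3% of all tested genes. The median log2 fold (7wkKO over 7wkWT) of the carriers was 0.04, against -0.00 for all tested genes, with 22 carriers above 0 and 16 below. For 35 of the 38 the log2 fold lay within 0.25 of 0, a share of 92.1%, against 74.7% of all tested genes, while between 9wkKO and 7wkKO the same held for 29 of the 38, or 76.3%, against 76.2%. Between 9wkKO and 7wkKO, 2 of the 38 were called (5.26%), 1 higher and 1 lower, against 4.66% of the 12046 genes tested (1.89% higher and 2.76% lower), so this share was near that of the whole table. At an unadjusted deposited p under 0.05 there were 5 (13.2%), against 12.9% of all tested genes. The median log2 fold (9wkKO over 7wkKO) was 0.01 for the carriers and 0.01 for all tested genes, with 21 carriers above 0 and 17 below.

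**Figure D1:**
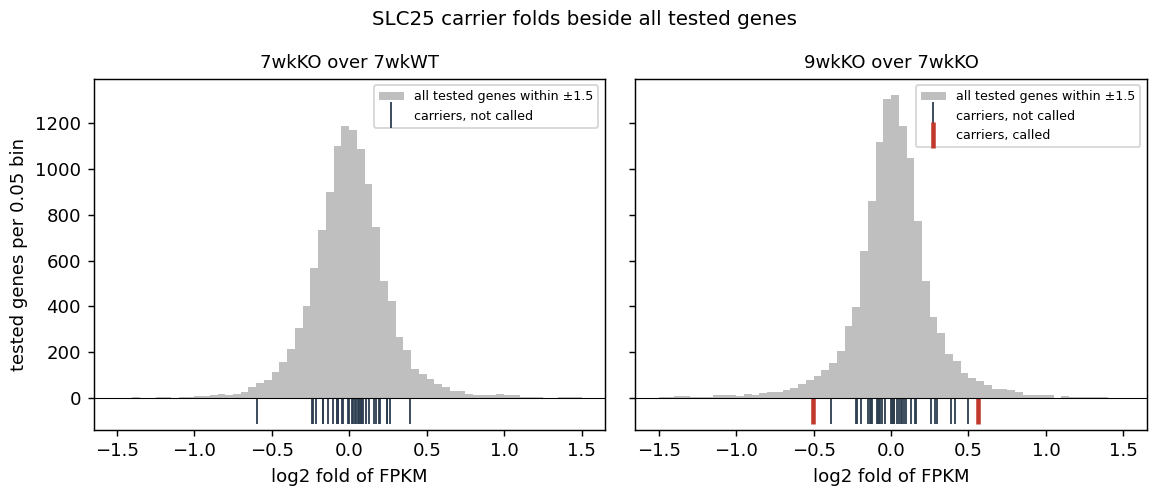
Log2 folds of FPKM for 7wkKO over 7wkWT (left) and 9wkKO over 7wkKO (right). Grey bars count all tested genes per bin, and ticks under the axis mark the 38 measured carriers, red where called. The carriers sit in the body of the distribution, and 2 of them were called, both on the right.

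The error of each fold was taken from the deposited test statistic, as the log2 fold divided by that statistic, and intervals are 95% normal intervals from such errors. These errors had a median of 0.29 over the 38 carriers at 7 weeks (lowest 0.25, highest 0.79) and of 0.28 between 9wkKO and 7wkKO (lowest 0.24, highest 0.72). The deposited p corresponds to a normal deviate 1.74 times the statistic (median over genes at 7 weeks), so the intervals are wider than the deposited p implies. At 7 weeks the interval lay inside a log2 fold of 1 in either direction for 34 carriers, and the exceptions were Slc25a4, Slc25a14, Slc25a35 and Slc25a47. Between 9wkKO and 7wkKO it did so for 31. The values of the same 7wkKO samples differed between the tables by 0.723% to 0.818% for the measured carriers. Where 3 groups are named in a sentence below, the 7wkKO value is that of the 7 week table and the 9wkKO value that of a separately normalized table.

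**Figure D2:**
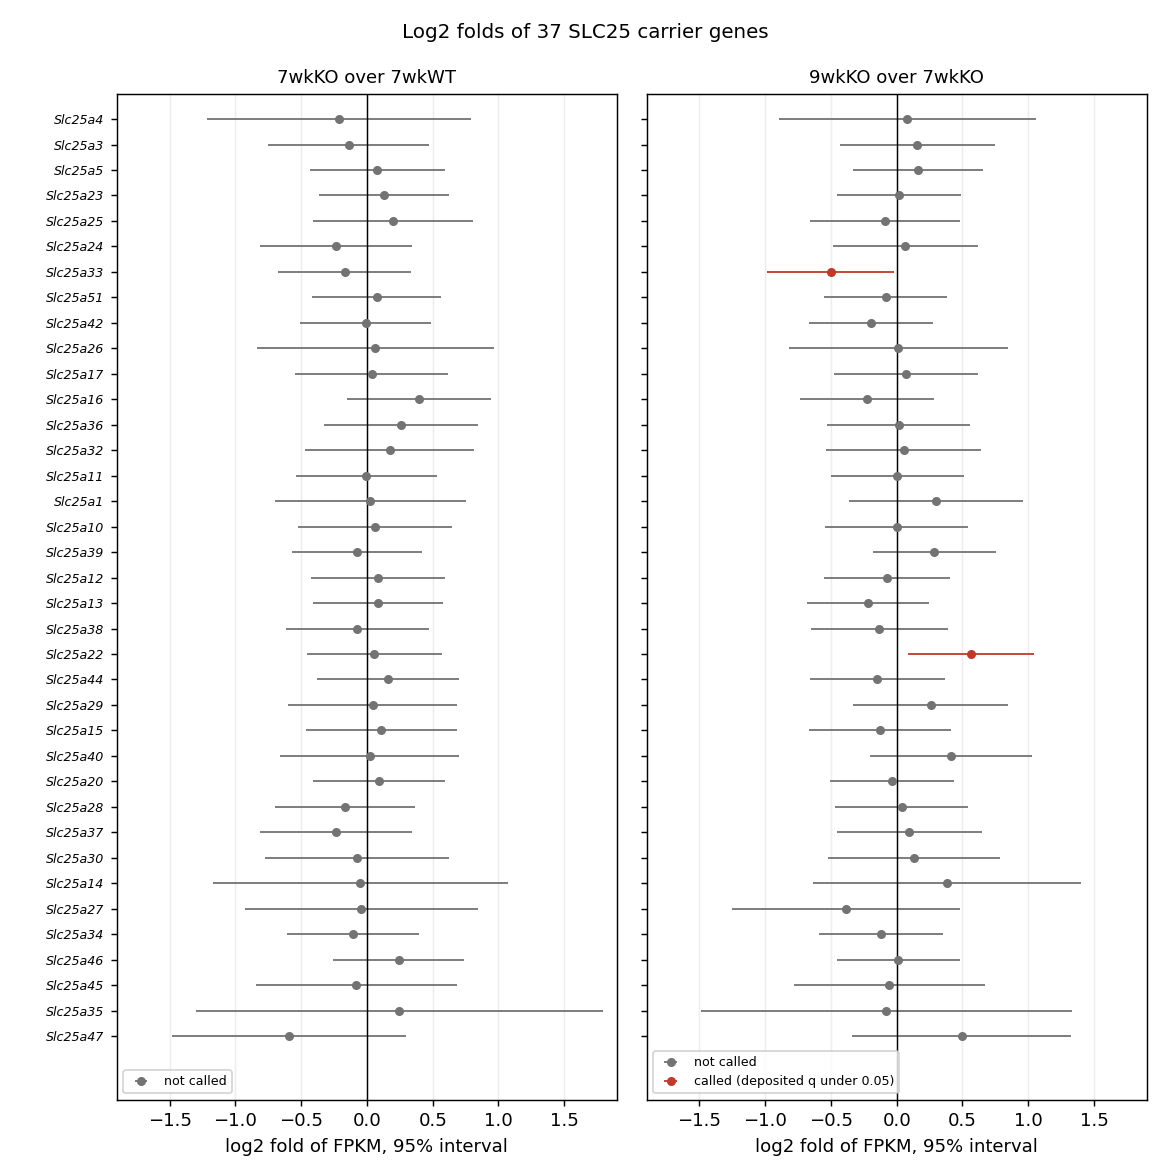
Log2 fold of 37 of the 38 measured carriers for 7wkKO over 7wkWT (left) and 9wkKO over 7wkKO (right), with 95% intervals from the deposited statistic, ordered by substrate. At 7 weeks every interval plotted crosses 0, and between 9wkKO and 7wkKO those of Slc25a33 and Slc25a22 (red) do not.

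Slc25a33 and Slc25a22 were the carriers called between 9wkKO and 7wkKO. Slc25a33 (mm10, chromosome 4, 149744036 to 149774267) encodes a carrier described in human cells as importing pyrimidine nucleotides. Its level was 20.2 FPKM in 9wkKO, against 28.6 in 7wkKO. The log2 fold of -0.50 (SE 0.25, interval -0.99 to -0.02) passed the Cuffdiff test in the authors' deposited table (p = 0.0003, q = 0.0104). At 7 weeks it was listed at 28.3 in 7wkKO and 31.9 in 7wkWT (log2 fold -0.17, SE 0.26, q = 0.788), so 9wkKO had the lowest of the group values. Slc25a22 (chromosome 7, 141429749 to 141437874) encodes a glutamate carrier that takes up glutamate with a proton. Its level was 22.8 FPKM in 9wkKO, against 15.4 in 7wkKO. The log2 fold of 0.56 (SE 0.24, interval 0.09 to 1.04) passed the Cuffdiff test in the authors' deposited table (p = 0.0001, q = 0.00427). At 7 weeks its values were 15.3 in 7wkKO and 14.7 in 7wkWT (log2 fold 0.06, SE 0.26, q = 0.968), and 9wkKO had the highest of the group values. Neither call remained with a normal p taken from the deposited statistic and adjusted over all tested genes. That p is larger than the deposited one, which corresponds to a normal deviate 1.74 times the statistic (median over genes at 7 weeks). Whether the loss reflects these 2 genes or this change of scale cannot be told. How many of all tested genes stay called under that p is not given here. No other gene of the RefSeq annotation overlapped either locus.

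In the isoform tables the rise of Slc25a22 was called for its main isoform, while the error of the other was too large to exclude a like rise. NM_001177576 was listed at 21.4 FPKM in 9wkKO, against 13.6 in 7wkKO (log2 fold 0.65, SE 0.26, Cuffdiff q = 0.00616 in the authors' deposited table), while NM_026646, which starts further upstream, had 1.37 in 9wkKO and 1.76 in 7wkKO (log2 fold -0.36, SE 0.97, q = 0.956). NM_001177576 took 94.0% of the FPKM summed over both isoforms in 9wkKO, 88.5% in 7wkKO and 88.7% in 7wkWT, and no test applies to these shares. Its annotated start, at 141434594 in GENCODE M21, lies downstream of that of NM_026646, at 141437892, on the minus strand. Slc25a33 had a single listed isoform, NM_027460 (q = 0.0149 between 9wkKO and 7wkKO in the authors' deposited isoform table). In all, 2 of the 46 tested carrier isoforms were called between 9wkKO and 7wkKO, 1 higher and 1 lower, against 2.93% of all tested isoforms (1.22% higher and 1.71% lower). At 7 weeks 0 of 46 were called, against 1.42% of all tested isoforms (1.01% higher and 0.414% lower). At an unadjusted p under 0.05 there were 4 between 9wkKO and 7wkKO, against a background of 9.89%, and 2 at 7 weeks, against 9.3%.

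**Figure D3:**
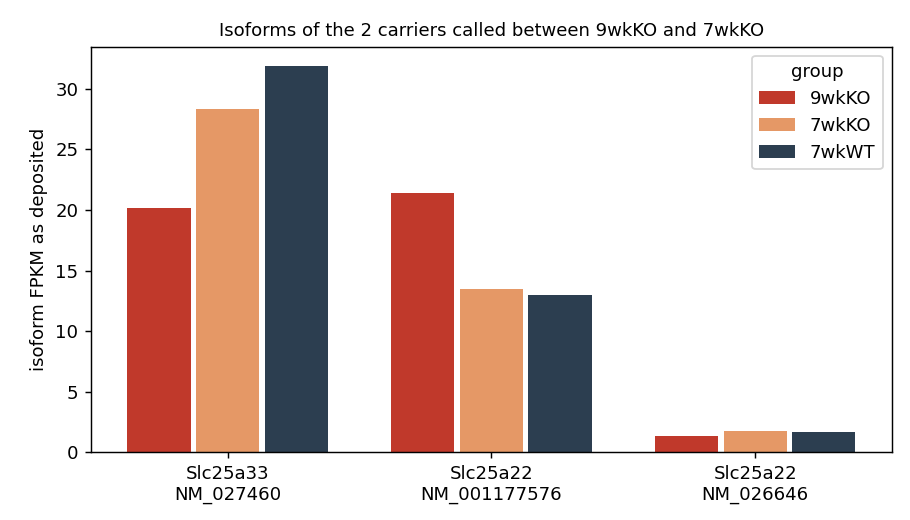
Isoform FPKM as deposited (vertical axis, from 0) for the single isoform of Slc25a33 and both isoforms of Slc25a22, with bars for 9wkKO, 7wkKO and 7wkWT. The bar of NM_001177576 is taller in 9wkKO (21.4) than in 7wkKO (13.5 in the 7 week table), and that of NM_027460 is lower.

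The promoter windows of the called carriers are shown because the rise of Slc25a22 was called for the isoform of 1 of its starts, though the other isoform was too imprecise to compare. RefSeq gives a further Slc25a22 window between those printed (start 141435375), which held 3 GC boxes and matched the start of neither listed isoform. Sequences are RefSeq GRCm38.p6 (the mm10 build), minus strand, read 5′ to 3′ from 250 bases before to 50 after RefSeq's start, which is the GENCODE start for NM_001177576 but lies 18 bases from it for NM_026646 and 10 bases from it for NM_027460 of Slc25a33. Capitals mark any of 6 motifs searched on both strands, namely the E-box CACGTG, the cAMP response element TGACGTCA, a palindromic nuclear respiratory factor 1 site, the ETS site CCGGAAG, the oestrogen-related receptor site AAGGTCA and the GC box GGGCGG.
Slc25a33, chr4:149774218-149774517: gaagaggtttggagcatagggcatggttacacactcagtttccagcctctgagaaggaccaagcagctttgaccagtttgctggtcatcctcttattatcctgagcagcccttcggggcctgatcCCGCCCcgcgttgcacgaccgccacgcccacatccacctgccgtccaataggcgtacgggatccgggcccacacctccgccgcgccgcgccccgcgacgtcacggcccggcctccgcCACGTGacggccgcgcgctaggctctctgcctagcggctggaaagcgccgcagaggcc
Slc25a22 (NM_001177576), chr7:141434545-141434844: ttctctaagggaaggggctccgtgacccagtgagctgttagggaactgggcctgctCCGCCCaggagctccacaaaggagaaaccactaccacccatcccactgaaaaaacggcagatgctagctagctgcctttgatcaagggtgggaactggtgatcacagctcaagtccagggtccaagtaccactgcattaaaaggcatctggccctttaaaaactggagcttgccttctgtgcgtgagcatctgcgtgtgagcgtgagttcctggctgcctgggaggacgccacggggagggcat
Slc25a22 (NM_026646), chr7:141437825-141438124: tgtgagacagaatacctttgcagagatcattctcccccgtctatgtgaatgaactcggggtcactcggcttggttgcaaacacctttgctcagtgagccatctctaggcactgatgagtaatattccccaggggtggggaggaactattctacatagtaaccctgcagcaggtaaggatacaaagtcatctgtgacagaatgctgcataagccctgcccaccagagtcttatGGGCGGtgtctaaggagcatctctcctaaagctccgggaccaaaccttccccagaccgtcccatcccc

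The Slc25a33 window held 1 E-box and 1 GC box, and each of the Slc25a22 windows shown held 1 GC box and no other motif of the search. The table of promoters matched 29 of the 38 measured carriers, with 37 windows in all. A GC box was found in 89.2% of these windows, against 63.0% of the 11539 windows of all tested genes with at least 1 FPKM and 35.7% of all 32851. An E-box was found in 18.9% of the carrier windows, against 9.88% and 7.15%, and the ETS site in 16.2%, against 17.2% and 8.86%. The cAMP response element was in 5.41% of the carrier windows, against 2.94% and 1.79%. The oestrogen-related receptor site was in 2.70%, against 3.19% and 4.72%. The nuclear respiratory factor 1 site was in 0 of the 37 carrier windows and was rare in both backgrounds, at 2.02% and 0.971%. The median GC content was 60% in the carrier windows, 61% in those of tested genes with at least 1 FPKM and 52.7% in all windows. These are letter matches, and nothing about binding was measured.

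The levels of the family were dominated by a few carriers. Slc25a4, which encodes the ADP/ATP carrier of heart and skeletal muscle, made up 75.7% of the summed FPKM of the 47 members in 9wkKO, 75.8% in 7wkKO and 77.9% in 7wkWT. The 9 most abundant members held 97.0% of the sum in 7wkKO and 97.4% in 7wkWT. In 7wkWT 5 members reached 100 FPKM, 14 lay between 10 and 100, 19 between 1 and 10, and 9 below 1. The summed FPKM of the family was 9326 in 7wkKO and 10512 in 7wkWT, a difference of -1187, of which Slc25a4 accounted for -1119. Between 9wkKO and 7wkKO the sums were 9956 and 9401. Neither sum was tested.

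**Figure D4:**
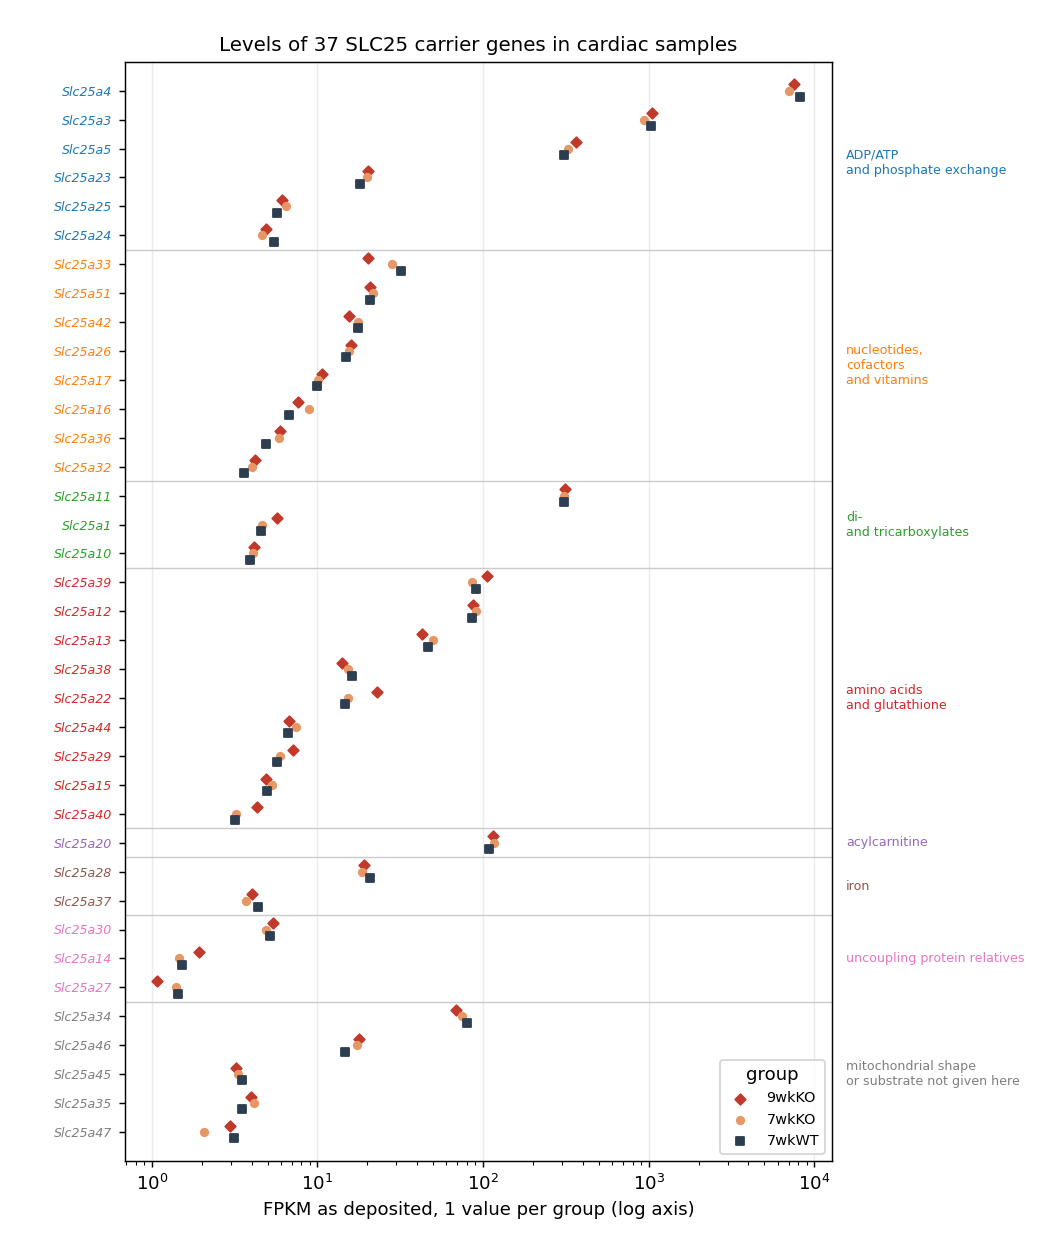
FPKM as deposited (log axis, 1 value per group) of 37 of the 38 measured carriers, grouped by substrate, in 9wkKO (diamonds), 7wkKO (circles, 7 week table) and 7wkWT (squares). Levels run from about 1 FPKM for Slc25a27 to 8186 for Slc25a4 in 7wkWT, and the groups of a carrier lie close together beside this range.

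None of the 6 measured carriers for ADP, ATP and phosphate was called in either comparison. Over all tested genes 2.37% were called at 7 weeks and 4.66% between 9wkKO and 7wkKO, so 0 of 6 says little about this group. Slc25a4 was listed at 7538 FPKM in 9wkKO, 7067 in 7wkKO and 8186 in 7wkWT. Its log2 fold was -0.21 at 7 weeks (SE 0.51, interval -1.22 to 0.79, q = 0.913) and 0.08 between 9wkKO and 7wkKO (SE 0.50, interval -0.89 to 1.06, q = 0.993) in the authors' deposited tables, so for this gene a change of up to about the size of the interval could not be told from none. Slc25a3, the phosphate carrier gene, had 1048, 933 and 1027 FPKM in 9wkKO, 7wkKO and 7wkWT (log2 fold -0.14 at 7 weeks, interval -0.75 to 0.47). Slc25a5, the ADP/ATP carrier gene found in most tissues, stood at 366 in 9wkKO, 325 in 7wkKO and 308 in 7wkWT, and its log2 fold at 7 weeks was 0.08 (interval -0.43 to 0.59). The ratio of Slc25a4 to Slc25a5 was 20.6 in 9wkKO, 21.7 in 7wkKO and 26.6 in 7wkWT, with no test of a ratio. Among the calcium-regulated ATP-Mg/phosphate carriers, Slc25a23 was listed at 20.2, 19.8 and 18.1 FPKM in the same order of groups. Slc25a25 had 6.15 in 9wkKO, 6.49 in 7wkKO and 5.66 in 7wkWT, and Slc25a24 had 4.90, 4.64 and 5.46. The 3 members of this kind differed by less than their implied errors in both comparisons.

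None of the 4 measured carriers of carboxylates and acylcarnitine was called in either comparison. With 2.37% (7 weeks) and 4.66% (9wkKO against 7wkKO) of all tested genes called, this says little about so few genes. Slc25a11, the oxoglutarate-malate carrier gene of the malate-aspartate shuttle, was listed at 312 FPKM in 9wkKO, 308 in 7wkKO and 309 in 7wkWT, with log2 folds of -0.00 at 7 weeks (interval -0.54 to 0.53) and 0.00 between 9wkKO and 7wkKO (interval -0.50 to 0.51). Slc25a20, which encodes the carnitine-acylcarnitine carrier of fatty acid oxidation, had 114 in 9wkKO, 116 in 7wkKO and 109 in 7wkWT. Its log2 fold at 7 weeks was 0.09 (interval -0.41 to 0.59). Slc25a1, the citrate carrier gene, was at 5.72, 4.63 and 4.54 FPKM in 9wkKO, 7wkKO and 7wkWT, and its log2 fold between 9wkKO and 7wkKO was 0.30 (SE 0.34, interval -0.37 to 0.96, q = 0.636). The dicarboxylate carrier gene Slc25a10 was listed at 4.12, 4.09 and 3.91 FPKM.

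Of 9 measured carriers of amino acids and glutathione, Slc25a22 was the member called, between 9wkKO and 7wkKO. In that comparison 4.66% of all tested genes were called, and a single call among 9 says little about the group. The aspartate-glutamate carriers, which also serve the malate-aspartate shuttle, were represented by Slc25a12 at 86.8 FPKM in 9wkKO, 90.5 in 7wkKO and 85.3 in 7wkWT and by Slc25a13 at 42.9, 49.6 and 46.7. Their ratio was 2.02 in 9wkKO, 1.83 in 7wkKO and 1.82 in 7wkWT. Neither of the glutathione-linked carrier genes passed the threshold. Slc25a39 was listed at 105 FPKM in 9wkKO, against 86.3 in 7wkKO (log2 fold 0.29, SE 0.24, Cuffdiff p = 0.0369 and q = 0.327 in the authors' deposited table). Slc25a40 was at 4.32 in 9wkKO, against 3.25 in 7wkKO (log2 fold 0.41, SE 0.31, Cuffdiff p = 0.0212 and q = 0.235 in the authors' deposited table). At 7 weeks the values of Slc25a39 were 85.7 in 7wkKO and 90.3 in 7wkWT, and those of Slc25a40 were 3.22 and 3.18. Slc25a38, needed for haem synthesis and linked to glycine import in yeast, had 14.2, 15.4 and 16.2 FPKM in 9wkKO, 7wkKO and 7wkWT. Slc25a44, linked to branched-chain amino acids in mouse brown fat, was listed at 6.78, 7.45 and 6.65 in that order, the basic amino acid carrier gene Slc25a29 at 7.13, 5.91 and 5.73, and the ornithine carrier gene Slc25a15 at 4.92, 5.34 and 4.95.

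Among the 9 measured carriers of nucleotides, cofactors and vitamins, Slc25a33 was called, and the related pyrimidine nucleotide carrier gene Slc25a36 was not. That call was between 9wkKO and 7wkKO, where 4.66% of all tested genes were called. Slc25a36 was listed at 5.93 FPKM in 9wkKO, 5.82 in 7wkKO and 4.86 in 7wkWT (log2 fold 0.26 at 7 weeks, SE 0.30, q = 0.636 in the authors' deposited table). The largest log2 fold above 0 at 7 weeks in the family was that of Slc25a16, a carrier gene linked to coenzyme A, at 8.87 in 7wkKO and 6.75 in 7wkWT. Its log2 fold of 0.39 (SE 0.28, interval -0.15 to 0.94) missed the Cuffdiff threshold in the authors' deposited table (p = 0.0128, q = 0.216). Its later values were 7.65 FPKM in 9wkKO and 8.94 in 7wkKO (log2 fold -0.23, q = 0.611). The coenzyme A carrier gene Slc25a42 had 15.4, 17.5 and 17.6 FPKM in 9wkKO, 7wkKO and 7wkWT, and Slc25a51, shown in human cells to carry NAD+, had 20.6, 21.7 and 20.6. The S-adenosylmethionine carrier gene Slc25a26 was listed at 15.8, 15.6 and 14.9 FPKM and the peroxisomal carrier gene Slc25a17 at 10.7, 10.1 and 9.88. Slc25a32, a folate and FAD carrier gene, was at 4.22, 4.04 and 3.58.

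The mitoferrins, which bring iron into the matrix, were not called. Slc25a28, the form found in most tissues, was listed at 19.1 FPKM in 9wkKO, 18.5 in 7wkKO and 20.8 in 7wkWT, and Slc25a37, the form used most by red cell precursors, at 3.72 in 7wkKO and 4.38 in 7wkWT, with a log2 fold of 0.10 between 9wkKO and 7wkKO. The erythroid haem synthesis gene Alas2 was listed at 9.48 in 9wkKO, against 6.49 in 7wkKO (log2 fold 0.55, Cuffdiff q = 0.0314), and at 6.44 in 7wkKO, against 8.87 in 7wkWT (q = 0.181), in the authors' deposited tables. The Alas2 value in the 7wkKO samples, which both comparisons share, was the lowest, so the opposite signs are not independent. Of the red cell markers, 3 were tested, with 0 called at 7 weeks and Alas2 as the 1 called between 9wkKO and 7wkKO. The shares called over all tested genes were 2.37% and 4.66%. The haemoglobin gene Hbb-bt was listed at 48.9 in 9wkKO and 40.9 in 7wkKO (log2 fold 0.26, q = 0.539 in the authors' deposited table), and Hbb-bs at 3.31 and 3.55 (log2 fold -0.10). Hba-a2 was not tested by the authors. Its value for the same 7wkKO samples was 0.0163 FPKM in the 7 week table and 46.2 in the other, so it cannot be used across them. Red cell content was not tested as a part of the Slc25a37 levels. The relatives of the uncoupling proteins were low. Slc25a30 had 5.40, 4.89 and 5.14 FPKM in 9wkKO, 7wkKO and 7wkWT, Slc25a14 had 1.92, 1.46 and 1.51, and Slc25a27 had 1.07, 1.39 and 1.43.

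The remaining measured members lack an agreed substrate or act elsewhere. Slc25a34, of unsettled substrate, was listed at 68.9 FPKM in 9wkKO, 74.3 in 7wkKO and 79.9 in 7wkWT and was the eighth in abundance in 7wkWT. Slc25a46, an outer membrane protein that shapes mitochondria, had 17.7, 17.4 and 14.7 (log2 fold 0.24 at 7 weeks, SE 0.25, q = 0.568). Slc25a45 was listed at 3.23, 3.33 and 3.52 FPKM and Slc25a35 at 3.96, 4.15 and 3.50. Slc25a47, known from liver, had the largest absolute log2 fold of the family at 7 weeks, with 2.08 FPKM in 7wkKO and 3.13 in 7wkWT. That log2 fold of -0.59 (SE 0.45, interval -1.48 to 0.29) missed the Cuffdiff threshold in the authors' deposited table (p = 0.0266, q = 0.326). Its values in the later comparison were 2.95 FPKM in 9wkKO and 2.09 in 7wkKO (log2 fold 0.50, p = 0.0443, q = 0.361 in the authors' deposited table). Both comparisons used the same 7wkKO samples, whose value was the lowest.

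The 9 members below 1 FPKM in every group were Slc25a2, Slc25a18, Slc25a21, Slc25a31, Slc25a41, Slc25a43, Slc25a48, Slc25a53 and Slc25a54. Slc25a31, an ADP/ATP carrier gene of testis, was listed at 0.168 in 9wkKO, 0.166 in 7wkKO and 0.190 in 7wkWT. Slc25a18, the second glutamate carrier gene beside Slc25a22, was listed at 0.128, 0.105 and 0.0459. Slc25a48 and Slc25a54 were listed at 0 in all groups. Several members lay beside one another in the genome. Slc25a41 ended 2.06 kb from Slc25a23 on chromosome 17, Slc25a54 lay 6.57 kb from Slc25a24 on chromosome 3, Slc25a43 lay 18.3 kb from Slc25a5 on the X chromosome, and Slc25a29 lay 15.3 kb from Slc25a47 on chromosome 12. In the first 3 of these 4 pairs a member below 1 FPKM adjoined a measured one.

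The level of each carrier in 9wkKO relative to 7wkWT was taken by adding the log2 folds of both comparisons, across separately normalized tables and with no test. The sum ran from -0.67 for Slc25a33 to 0.62 for Slc25a22, with a median of 0.06, and 29 of the 38 lay within 0.25 of 0. It was above 0.25 for 7 carriers, Slc25a22, Slc25a40, Slc25a14, Slc25a1, Slc25a29, Slc25a36 and Slc25a46, and below -0.25 for 2, Slc25a33 and Slc25a27. The shares of all tested genes within and beyond these limits are not given here, so these counts cannot be judged against them.

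Over 10 lists of genes that work with the carriers, 3 of 68 tested members were called between 9wkKO and 7wkKO (4.41%), near the 4.66% of all tested genes. At 7 weeks 0 of the 68 were called, against 2.37% of all tested genes, and 7 (10.3%) had an unadjusted p under 0.05, against 11.3%. The TIM22 insertion route had 0 of 11 tested members called in either comparison. At an unadjusted p under 0.05 it had 1 at 7 weeks and 0 between 9wkKO and 7wkKO. The malate-aspartate shuttle enzymes (4 tested), the carnitine shuttle enzymes (4), the porins (3) and the creatine and adenylate kinases (4) likewise had 0 called by the deposited q and 0 by an unadjusted p under 0.05, at both steps. Their most abundant members included Mdh2, at 1508 FPKM in 7wkKO and 1605 in 7wkWT, and Ckmt2, the mitochondrial creatine kinase gene of muscle, at 2005 in 7wkKO and 2232 in 7wkWT. The uncoupling protein gene Ucp2 was listed at 128 in 7wkKO, against 103 in 7wkWT (log2 fold 0.31, p = 0.0411, Cuffdiff q = 0.404 in the authors' deposited table), and Ucp3 at 27.1 in 9wkKO, against 22.2 in 7wkKO (log2 fold 0.29, q = 0.369). Of 18 other inner membrane transporters 1 was called between 9wkKO and 7wkKO. It was Sfxn3, a sideroflexin gene, which rose to 8.15 FPKM in 9wkKO, against 5.36 in 7wkKO (log2 fold 0.60, SE 0.27, Cuffdiff q = 0.00748 in the authors' deposited table). Of 11 regulators of mitochondrial genes 1 was called in that comparison. It was Ppargc1a, a coactivator of mitochondrial biogenesis, which fell to 18.0 in 9wkKO, against 25.1 in 7wkKO (log2 fold -0.48, SE 0.24, Cuffdiff q = 0.0260 in the authors' deposited table). At 7 weeks Ppargc1a was at 24.9 in 7wkKO and 18.6 in 7wkWT (log2 fold 0.42, p = 0.0031, Cuffdiff q = 0.0904 in the authors' deposited table). Its value in the 7wkKO samples, which both comparisons share, was the highest, so the opposite signs are not independent. The third call was Alas2, 1 of 9 tested genes of mitochondrial iron and haem, given above with the mitoferrins. The median log2 fold of the regulators was 0.15 at 7 weeks and 0.01 between 9wkKO and 7wkKO, against -0.00 and 0.01 for all tested genes.

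Markers of the cardiac samples set these values in context. All 10 cardiomyocyte markers were measured and 0 were called at either step, also by an unadjusted p under 0.05. Markers of atrial muscle were called in both comparisons. At 7 weeks 5 of 5 were higher in 7wkKO than in 7wkWT (summed FPKM 2976 and 727). Later 5 of 5 were lower in 9wkKO than in 7wkKO (830 and 2995). Nppa made up most of each sum, with 2314 FPKM in 7wkKO, 416 in 7wkWT and 767 in 9wkKO. Sln, Myl4, Myl7 and Mybphl instead stood lower in 9wkKO than in 7wkWT. Myl7, for example, had 32.5 in 9wkKO and 164 in 7wkWT, across separately normalized comparisons with no test. At 7 weeks the summed FPKM of the endothelial markers was 371 in 7wkKO and 467 in 7wkWT. Of these markers 0 of 6 were called, 4 had an unadjusted Cuffdiff p under 0.05 and 6 of 6 had log2 folds below 0. The fibroblast markers then summed to 760 in 7wkKO and 697 in 7wkWT, with 1 of 7, Postn, called higher (log2 fold 0.63, q = 0.005 in the authors' deposited table) and 6 of 7 above 0. Endothelial markers had a summed FPKM of 501 in 9wkKO and 374 in 7wkKO, with 2 of 6, Kdr and Emcn, called higher. In that comparison 5 of 6 had an unadjusted Cuffdiff p under 0.05 and 6 of 6 had log2 folds above 0. Fibroblast markers summed to 625 in 9wkKO and 766 in 7wkKO, with 2 of 7, Lum and Postn, called lower. Of the fibroblast markers 3 had an unadjusted Cuffdiff p under 0.05 and 6 of 7 had log2 folds below 0. The opposite signs of the atrial, endothelial and fibroblast markers at both steps rest on the same 7wkKO samples and are not independent. Of all tested genes, 2.37% were called at 7 weeks and 4.66% between 9wkKO and 7wkKO. An unadjusted Cuffdiff p under 0.05 was found for 11.3% and 12.9% of them. Of 6 smooth muscle and 5 macrophage markers 0 were called at either step, also by an unadjusted p under 0.05. Of 8 genes listed as skeletal muscle markers 5 were tested. At 7 weeks Acta1 was called higher (1755 FPKM in 7wkKO, 198 in 7wkWT) and Myl1 lower. Both were called lower in 9wkKO than in 7wkKO. Ckm, at 2702 FPKM in 7wkWT, was not called at either step, and the myosin genes Myh1, Myh2 and Myh4 stayed below 1 FPKM in every group. Acta1 and Ckm were thus abundant where these myosin genes were not, and skeletal muscle content was not tested. The adipocyte list had 1 tested marker, which was not called. The part of these markers' cell types in the Slc25a33 and Slc25a22 values was not tested, and in bulk samples fewer cells of a type and less RNA per cell cannot be told apart. Egfr itself was listed at 1.64 FPKM in 7wkKO and 1.20 in 7wkWT (q = 0.379) and at 1.59 in 9wkKO in the authors' deposited tables. Since the extent of the deletion is unknown, this level is no check of the genotype, and all directions refer to the samples labelled EGFR KO.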

How the data were processed

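The RNA was poly(A)-selected and the libraries kept strand information, per the labels' protocols. The submitters' processing notes name TopHat2, Cuffdiff and the build mm10; their versions and settings were not found in the sources used here. The authors deposited 1 FPKM value per group and gene or isoform. Beside it stand the authors' deposited test statistic, treated here as a score, and the deposited p-value and q-value.

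Log2 folds were recomputed from FPKM with no pseudocount. A call needed a deposited q under 0.05 with status OK. Standard errors are the log2 fold over the statistic. Depth is unknown. File starts count from 0 and were raised by 1; 20 of 47 then equalled RefSeq's.

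The members and lists were chosen with earlier results of these data known. All members but 1, which is counted but not reported here, are named, folds not printed are plotted, and from other lists the called or most abundant members. Alternatives changed the q limit, the adjustment, the FPKM filter, the fold minimum, the pseudocount, the centring and the table. Scripts were tested on simulated data. Tools were SciPy 1.17.1, pandas 2.3.3, NumPy 2.4.6, Python 3.11.15 and, for figures, Matplotlib 3.10.9.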

Additional observations from a re-analysis of the deposited data

How the results depend on the processing

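At 7 weeks the count of called carriers stayed at 0 under every alternative run except an unadjusted p under 0.05, which gave 2. Between 9wkKO and 7wkKO the count of 2 became 1 at a deposited q under 0.01, 0 with a normal p from the deposited statistic and 5 at an unadjusted p under 0.05, and it was 2 under the other alternatives. The statistic alone gives larger errors than the deposited p, so the 0 calls under it cannot be told apart from this change of scale. Under the filters, pseudocounts and centrings tried, the family medians ran from 0.02 to 0.06 at 7 weeks and from -0.00 to 0.04 between 9wkKO and 7wkKO. Centring on all tested genes changed the sign of 3 uncalled carriers with folds near 0 between 9wkKO and 7wkKO, Slc25a11, Slc25a26 and Slc25a46, and of 0 at 7 weeks. Leaving out single replicates was not run, since single samples have no values in the tables. No paired analysis was possible because the tables hold 1 value per group. Depth per sample is unknown, so the smallest change that could be detected cannot be given.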

Other observations

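Several carriers had more than 1 listed isoform. Among 7 such carriers with a summed isoform FPKM of at least 1 in both groups, 1, Slc25a14, shifted an isoform share by at least 20 percentage points at 7 weeks. Its isoform NM_001290705 made up 46.5% in 7wkKO and 68.9% in 7wkWT, at a gene level of 1.46 and 1.51 FPKM. Its isoform NM_001166450 shifted most, with 31.1% in 7wkKO and 5.92% in 7wkWT, at 0.455 and 0.0897 FPKM, and was not tested by the authors. None of the isoforms of Slc25a14 was called. How many of all genes with several isoforms shifted by this much is not given here. With a summed FPKM of at least 5 required, 0 of 5 carriers shifted by that much. The next largest shifts at 7 weeks among these 7 were in Slc25a44 and Slc25a40. The share of NM_178696 of Slc25a44 was 62.7% in 7wkKO and 45.3% in 7wkWT, and that of NM_001289595 of Slc25a40 was 88.6% in 7wkKO and 71.4% in 7wkWT. Between 9wkKO and 7wkKO 0 of 7 carriers shifted by 20 points, and the largest shift was that of NM_001164357 of Slc25a25, at 54.9% in 9wkKO and 39.6% in 7wkKO. No test applies to these shares.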
